A study of Mus musculus with 6 samples.

Results

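The genes described here encode the subunits of oxidative phosphorylation, in sorted lymphocytes of the mouse mammary gland. Members were chosen by name: every gene of the deposited table whose symbol begins with mt-Nd, mt-Co, mt-Cytb, mt-Atp, Uqcr, Cox4 to Cox8 or Atp5, begins with Nduf, a letter out of a, b, c, s and v and then a digit, or is Sdha, Sdhb, Sdhc or Sdhd, apart from names that end in -ps. These are mouse names of subunits of complexes I to V, and the assembly factors named Ndufaf or Sdhaf fall outside. The rule found 107 of 55450 genes. The mitochondrial genome encodes 13 of them and the nuclear genome 94. By complex the nuclear members number 40 for I, 4 for II, 10 for III, 19 for IV and 21 for V, and the mitochondrially encoded ones 7 for I, 1 for III, 3 for IV and 2 for V. GENCODE M21 lists 98 members as protein coding and 9 as processed pseudogenes. The name rule puts Ndufa4 with complex I, although its protein is now counted with complex IV. It also takes in Cox7a2l and Atp5s, whose products can join complexes or aid their assembly.

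Oxidative phosphorylation takes place on the inner mitochondrial membrane. Complexes I and II pass electrons from NADH and succinate to ubiquinone, complex III hands them to cytochrome c, and complex IV passes them to oxygen. Complexes I, III and IV pump protons, and complex V, the ATP synthase, uses the return flow to make ATP. The core proton-pumping subunits come from mitochondrial DNA, and all other subunits, with the whole of complex II, come from nuclear genes, so the complexes are built from transcripts of both genomes. Resting lymphocytes are known to depend largely on this pathway, and activated T cells and NK cells on both it and glycolysis.

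The 6 bulk RNA-seq libraries hold RNA of lymphocytes that were sorted out of the mammary gland near the end of pregnancy (E18.5). CD8 beta+ T cells, conventional cytotoxic T cells, gave 3 libraries. Lymphocytes called double negative (DN) and NK1.1+, a surface receptor of NK cells and some T cells, gave the other 3. The sample titles call these cells T cells too, and the labels do not name the markers the DN cells lack. No strain, age, genotype or treatment is given for either group, and nothing says that the 3 libraries of each were made from different mice, so the spread between libraries may be technical. Library totals were between 7961360 and 14367299 counts, and 1 count was worth 0.0721 to 0.13 CPM (counts scaled to library size, here with TMM factors). The T cell markers had a sum of 4641 to 4970 CPM in CD8 beta+ libraries, against 1783 to 1976 CPM in the DN NK1.1+ libraries. For NK and innate markers the sums were 1270 to 1521 and 4804 to 5517 CPM.

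Markers of other cells were also present. Milk and luminal epithelial markers summed to 731 to 1051 CPM in CD8 beta+ and 425 to 2193 CPM in DN NK1.1+ libraries, with none of the 14 at 0, and DN NK1.1+ library 3 was highest. Myoepithelial markers summed to 15.7 to 155 and 10.9 to 206 CPM. Adipocyte and fibroblast markers, of which Adipoq, Cfd and Plin1 were at 0, summed to 16.7 to 199 and 10.9 to 193 CPM. In both lists library 3 was the highest of its group, for CD8 beta+ and DN NK1.1+ alike. Myeloid markers (12 genes) summed to 192 to 287 and 387 to 475 CPM, endothelial markers to 34.8 to 43.5 and 48.2 to 81.3 CPM, and B and plasma cell markers to 193 to 358 and 346 to 550 CPM. Their part in the results below was not tested. In bulk libraries, fewer cells of a type and less RNA per cell cannot be told apart.

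The comparison asked how far the subunit transcripts of DN NK1.1+ cells differ from those of CD8 beta+ T cells. Per-library values are given below for CD8 beta+ libraries 1, 2 and 3 and then DN NK1.1+ libraries 1, 2 and 3, and log2 fold changes are DN NK1.1+ over CD8 beta+. Adjusted p-values come from the quasi-likelihood test of edgeR, adjusted by Benjamini-Hochberg over all 13171 genes tested, and a gene is called changed where its adjusted p is under 0.05.

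Few subunit genes differed between the populations beyond the spread of the libraries. Of the 107 members, 90 passed the filter on low counts, and of these Ndufs5 rose and Uqcrh fell, so that 2.22% of tested members were called. Among all genes tested, 13.8% were called, 7.84% as higher in DN NK1.1+ cells and 5.99% as lower. Many genes changed at levels like those of the subunits: 19.6% of the 5971 genes with a mean of at least 20 CPM were called, a level that 76 members reach. The 95% interval of the fold change lay within 2-fold in either direction for 88 of the 90 tested members, Ndufs5 and Atp5s being the others, and within 1.5-fold for 66. It lay within 2-fold for 55.4% of all genes tested and for 88.7% of those with at least 20 CPM. The groups did not overlap for 20 members (22.2%), against 30.6% of all genes tested. At an unadjusted p under 0.05, 6 members had higher and 7 lower values in DN NK1.1+ libraries, 13 of 90, where 25% of all genes passed.

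**Figure D1:**
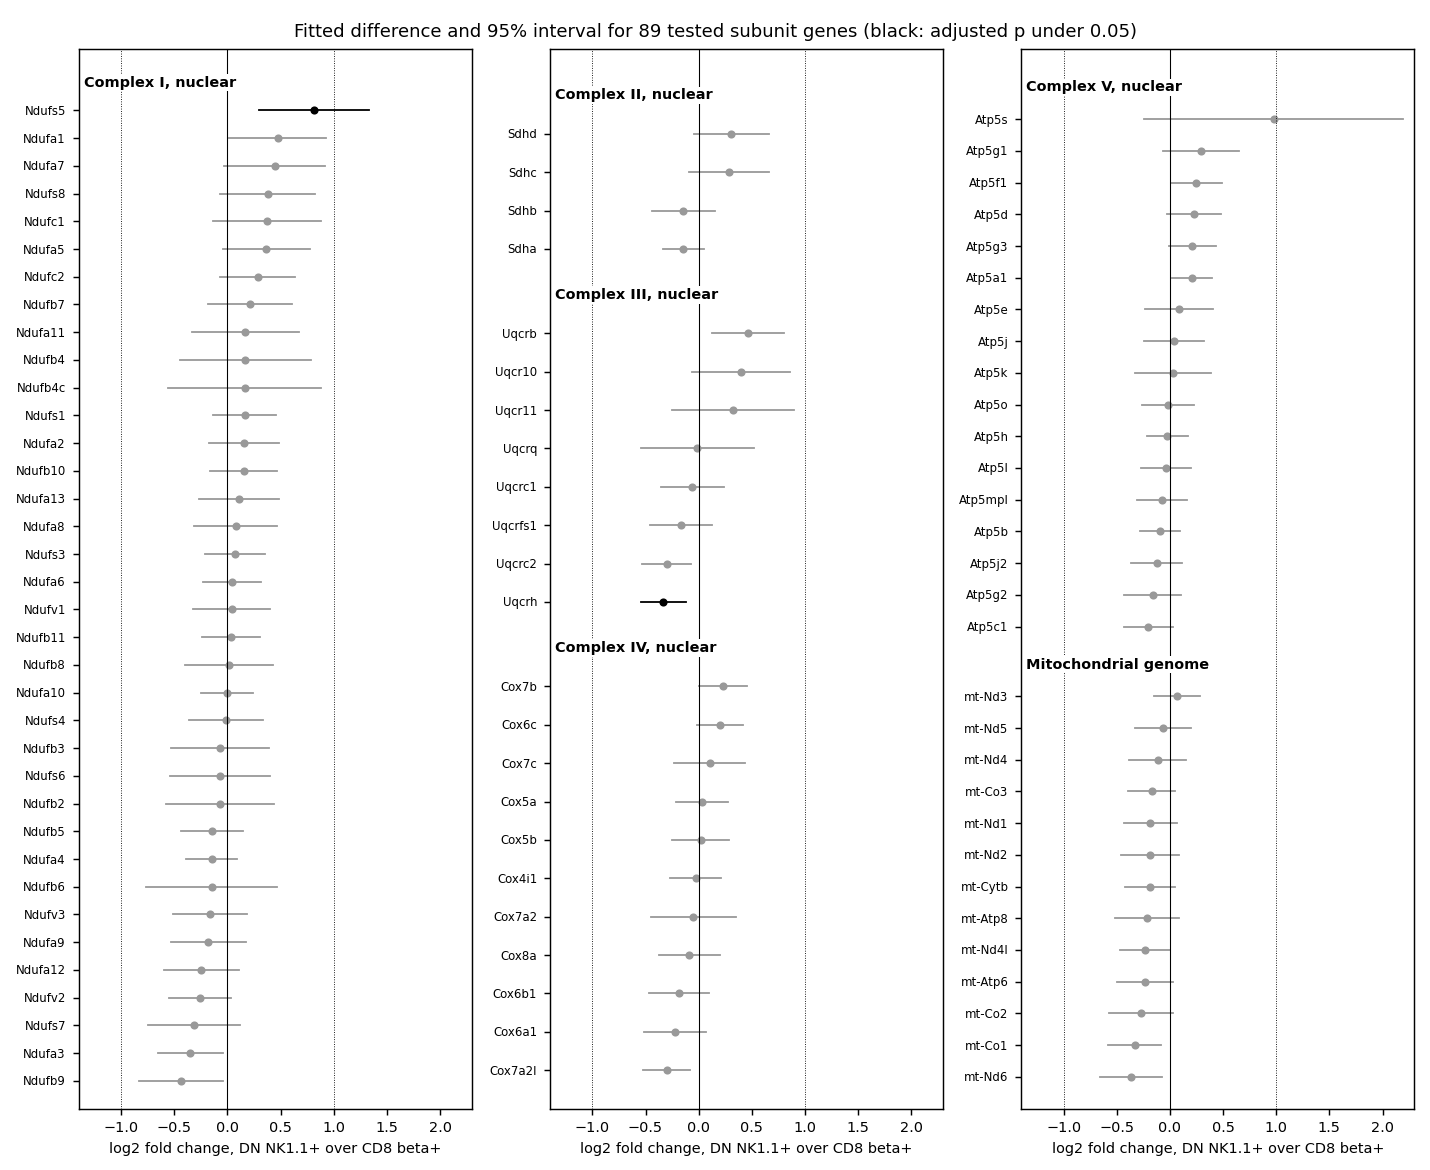
Fitted log2 fold change (point) and 95% interval (line) of DN NK1.1+ over CD8 beta+ libraries for 89 of the 90 tested subunit genes, by complex and genome, with dotted lines at 2-fold. Ndufs5 and Uqcrh, in black, passed the threshold, and 12 of the 13 mitochondrially encoded genes lie left of 0.

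The sequences that carry the results are few. Ndufs5 and Uqcrh, the 2 called members, both lie on the minus strand of chromosome 4 of GRCm38 (Ndufs5 at 4:123712710-123718202, Uqcrh at 4:116066965-116075071, in GENCODE). Their promoters are shown because nuclear respiratory genes are known targets of NRF1, of ETS factors such as GABP, and of YY1. The 150 bases before the RefSeq start of transcription (GRCm38.p6, chr4:123718187-123718336 and chr4:116075071-116075220, minus strand) read as follows, with the motif letters in capitals.
Ndufs5 promoter: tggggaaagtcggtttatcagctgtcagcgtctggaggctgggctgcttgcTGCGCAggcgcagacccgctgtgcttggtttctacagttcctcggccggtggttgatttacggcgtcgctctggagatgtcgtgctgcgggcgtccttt
Uqcrh promoter: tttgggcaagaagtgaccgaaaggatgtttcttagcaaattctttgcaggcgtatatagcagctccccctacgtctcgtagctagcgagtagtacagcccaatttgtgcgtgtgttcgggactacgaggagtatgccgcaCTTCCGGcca
Ndufs5 holds the NRF1 half-site letters TGCGCA, from position -99 counted back from the start. Uqcrh holds the ETS letters CCGGAAG on the opposite strand, as CTTCCGG, from position -10.

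These letters were common among the members. RefSeq windows of 300 bases, 250 of them before the start, were at hand for 69 of the 94 nuclear members. The 64 tested ones among them had 69 windows, since a gene can have more than 1, and the member shares below are of these windows. Searched on both strands, TGCGCA was in 27.5% of member windows, against 7.76% of all 32851 windows and 9.74% of those of protein-coding genes. CCGGAAG was in 23.2% of member windows, against 8.86% and 11.6%. The YY1 letters AAGATGG were in 15.9%, against 6.34% and 6.24%. None of these words is part of another, and a match describes the window only. The member windows are of genes that passed the count filter, while the other windows were taken whether or not their genes were expressed. The shares therefore do not compare genes of like expression. The median log2 fold change of tested members with and without TGCGCA was 0.02 (18 genes) and 0.01, with and without CCGGAAG 0.00 (16 genes) and 0.02, and with and without AAGATGG -0.01 (11 genes) and 0.03. Members with and without each word thus had medians close to 0.

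The mitochondrial genome is compact, and 2 features of its sequence bear on the counts. The genes mt-Atp8 and mt-Atp6, which encode membrane subunits of the ATP synthase, are read from one messenger and share 43 bases (M:7927-7969). The shared bases are in capitals here, with 12 bases on each side (GRCm38, chrM:7915-7981, plus strand).
mt-Atp8 and mt-Atp6 overlap: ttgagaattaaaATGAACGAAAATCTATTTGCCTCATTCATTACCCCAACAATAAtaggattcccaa
In the same way mt-Nd4l and mt-Nd4 share 7 bases, and mt-Nd5 and mt-Nd6 share 14 on opposite strands. How reads in shared stretches were assigned by the authors' counting is not stated.

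The other feature is a nuclear copy. Chromosome 1 holds a stretch of mitochondrial sequence (1:24611535-24616197, minus strand) that GENCODE divides into genes of its own. One of these, Gm29216, matches mt-Co1, and its first 42 bases are set beside those of mt-Co1 (bases 1054 to 1095 of the gene, counted from 1 at its start) with the bases that differ in capitals.
mt-Co1 stretch: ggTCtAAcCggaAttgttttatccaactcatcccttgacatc
Gm29216 stretch: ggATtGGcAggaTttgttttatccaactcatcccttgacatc
The 6 differences are T1056A, C1057T, A1059G, A1060G, C1062A and A1066T, and the other 486 of the 492 bases of the copy are identical, among them all 479 after the last difference. Gm29216 received 3.11% to 4.95% of the counts of the pair. The copy of mt-Co2, Gm28661, is identical to it over all 681 bases, and it received 45.9% to 54.9% of their joint counts, so mt-Co2 is listed at about the level its copy is. Identical copies of mt-Co3 (Gm28437) and mt-Nd4 (Gm28439) had 0 counts in every library, the identical copy of mt-Atp6 (Gm10925) had 818 counts in CD8 beta+ library 3 and at most 1 in the others, and Gm28438, which differs from mt-Nd3 by T3C, took at most 0.976%. Reads from identical sequences cannot be told apart, and the values of mt-Co2 in particular are uncertain. All 13 mitochondrially encoded members have fractional deposited values.

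The 13 mitochondrially encoded genes took 6.23% ± 0.353 of all counts in CD8 beta+ libraries and 5.53% ± 0.495 in DN NK1.1+ libraries (SD, n = 3 each). Their summed level was 67241, 65824 and 57395 CPM in CD8 beta+ and 58023, 57126 and 48230 CPM in DN NK1.1+ libraries. The groups overlapped, since CD8 beta+ library 3 lay below DN NK1.1+ library 1. The sum for nuclear members was 5445, 5032 and 5541 CPM against 5154, 5169 and 5537 CPM, a ratio of means of 0.990, where the ratio for the mitochondrially encoded genes was 0.858. The ratio of mitochondrially encoded to nuclear CPM was therefore 12.3, 13.1 and 10.4 against 11.3, 11.1 and 8.71, also overlapping. The mitochondrial ribosomal RNAs, which no subunit list holds, had 33088, 42821 and 23534 CPM against 26016, 30445 and 22428 CPM.

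None of the 13 mitochondrially encoded genes was called in the reported edgeR fit, and 2 had an unadjusted p under 0.05, where 13.8% and 25% of all genes passed. DESeq2 and limma-voom each called 1, mt-Co1, lower in DN NK1.1+ libraries; they called 15.4% and 13.3% of all genes. With no filter on low counts edgeR called mt-Co1 and mt-Nd6, both lower, among 2192 calls in 23118 genes. The estimates of 12 of the 13 were below 0, from -0.36 for mt-Nd6 to 0.07 for mt-Nd3, with a median of -0.19. Of all genes tested 50.3% had estimates below 0, and their median was 0.00. The 13 genes are not independent observations, since all lie on the mitochondrial chromosome and most share their lowest library. DN NK1.1+ library 3 was the lowest of the 6 for 12 of the 13 genes, and CD8 beta+ library 1 was the highest for 8. Each of these 2 libraries had the highest epithelial marker sum of its group (2193 and 1051 CPM), and a link was not tested. Among the 77 tested nuclear members DN NK1.1+ library 3 was instead the highest of the 6 for 31, and CD8 beta+ library 2 was the lowest for 22. Without DN NK1.1+ library 3 the median of the 13 genes was -0.12 and the estimate for mt-Nd5 was 0.06. Without CD8 beta+ library 3 that median was -0.29 and 3 of the 13 were called lower, where 1976 of all 13795 genes tested were called.

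**Figure D2:**
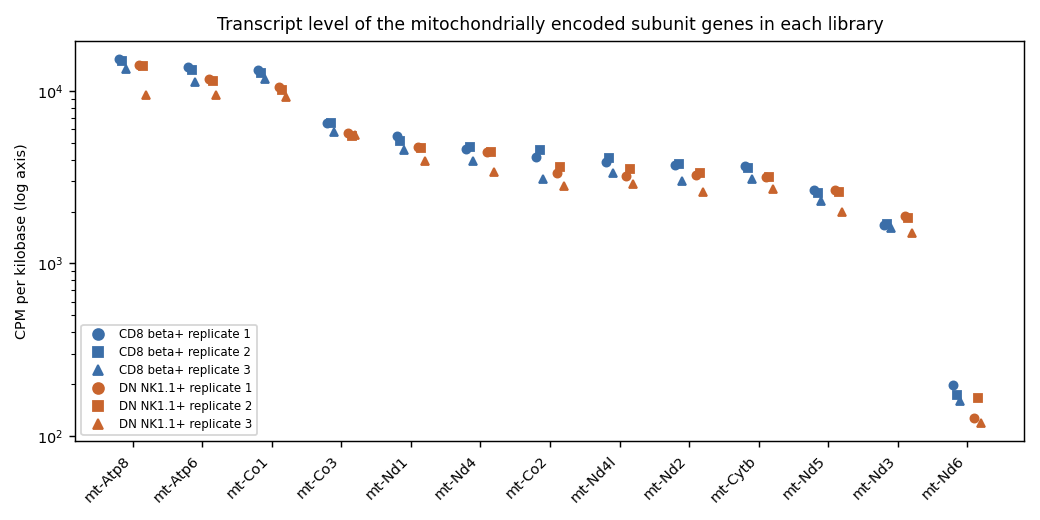
Level of each mitochondrially encoded subunit gene in CPM per kilobase (log axis) in each of the 6 libraries, ordered by the CD8 beta+ mean. The order is the same in both groups, with mt-Atp8 highest and mt-Nd6 lowest, and DN NK1.1+ library 3 (orange triangle) is lowest for 12 of the 13 genes.

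Among the mitochondrially encoded sums by complex, that of complex IV had the lowest ratio of DN NK1.1+ to CD8 beta+ means. The genes mt-Co1, mt-Co2 and mt-Co3, which encode its catalytic core, summed to 28344, 27743 and 24753 CPM in CD8 beta+ and 23058, 22360 and 20495 CPM in DN NK1.1+ libraries, and here the groups did not overlap (ratio 0.815, against 0.853 for complex V, 0.878 for III and 0.912 for I). Most of this sum was mt-Co1, with means of 19328 of 26947 CPM in CD8 beta+ and 15365 of 21971 CPM in DN NK1.1+ libraries. Counts of the chromosome 1 copies are not in it. The gene mt-Co1, for the subunit with the oxygen-binding haem site, had 20371, 19526 and 18085 CPM against 16281, 15587 and 14227 CPM. Every CD8 beta+ library was above every DN NK1.1+ library, with a log2 fold change of -0.33 (SE 0.12, edgeR adjusted p = 0.078). DESeq2 gave mt-Co1 an adjusted p of 0.0011 and limma-voom 0.013, at nearly the same fold change (-0.33 in both). With the counts of Gm29216 added, a step chosen after the data were seen, the fold change of mt-Co1 was -0.33 and edgeR's adjusted p was 0.078.

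The gene mt-Co2, for the subunit that takes electrons from cytochrome c, was listed at 2844, 3123 and 2120 CPM against 2289, 2476 and 1936 CPM, and the groups overlapped. Its log2 fold change of -0.27 (adjusted p = 0.27) became -0.19 (adjusted p = 0.42, edgeR) when the counts of its identical copy were added. The gene mt-Co3, for the remaining core subunit, had 5129, 5095 and 4548 CPM against 4488, 4297 and 4332 CPM, which did not overlap, with a log2 fold change of -0.17 (SE 0.10, adjusted p = 0.35).

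The mitochondrially encoded genes of complex I, all for membrane-arm subunits, summed to 22214, 21885 and 18711 CPM against 20526, 20532 and 16201 CPM. The least abundant of them, mt-Nd6, had 102, 89.5 and 82.6 CPM against 65.6, 85.9 and 61.5 CPM, and the groups overlapped through DN NK1.1+ library 2. Its log2 fold change was -0.36 (SE 0.14, adjusted p = 0.097), and it was called without that library (-0.53, adjusted p = 0.025). Removing that library also removes the overlap, and that fit called 1323 of all 13767 genes. Among these 13 genes mt-Nd6 alone is read from the other strand of mitochondrial DNA. The gene mt-Nd3 had 579, 589 and 561 CPM against 654, 637 and 521 CPM, and its estimate, 0.07 (SE 0.10), was the one above 0. The others, mt-Nd1, mt-Nd2, mt-Nd4, mt-Nd4l and mt-Nd5, had estimates of -0.18, -0.19, -0.12, -0.23 and -0.06, with adjusted p-values of 0.37, 0.41, 0.64, 0.21 and 0.82 by edgeR.

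In complex III, mt-Cytb, the cytochrome b gene, had 4191, 4080 and 3538 CPM against 3629, 3636 and 3103 CPM (log2 fold change -0.19, SE 0.11, edgeR adjusted p = 0.34). In complex V, mt-Atp6 had 9361, 9051 and 7666 CPM against 7941, 7742 and 6488 CPM (-0.23, SE 0.12, edgeR adjusted p = 0.26). Its overlapping partner mt-Atp8 had 3129, 3065 and 2728 CPM against 2869, 2856 and 1943 CPM (-0.22, SE 0.14). All 3 had overlapping groups, since CD8 beta+ library 3 was below the first DN NK1.1+ library in each.

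The order of these genes per kilobase was the same in both groups. In CD8 beta+ libraries it ran from mt-Atp8 (14578 ± 1058 CPM per kb, SD, n = 3), mt-Atp6 (12765 ± 1325) and mt-Co1 (12510 ± 748) to mt-Co3 (6280 ± 416), and then through mt-Nd1, mt-Nd4, mt-Co2, mt-Nd4l, mt-Nd2, mt-Cytb, mt-Nd5 and mt-Nd3 to mt-Nd6 (176 ± 19.1). In both groups the ranges of neighbours overlapped among mt-Atp8, mt-Atp6 and mt-Co1 and along the run from mt-Nd1 to mt-Cytb, and were separate at mt-Co3 and from mt-Cytb downwards. The level of mt-Nd6 was 82.7-fold below that of mt-Atp8 in CD8 beta+ libraries. The place of mt-Co2 depends on its copy: joined with Gm28661 it reached 8349, 8440 and 6821 CPM per kb in CD8 beta+ and 7416, 7573 and 5732 CPM per kb in DN NK1.1+ libraries, above mt-Co3 in 6 of 6 libraries.

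Nuclear members of complex I had a median log2 fold change of 0.05 over the 37 tested, and 1 was called (2.7%, against 13.8% of all genes). Ndufs5, an accessory subunit of the proximal membrane arm, had 7.78, 8.87 and 9.35 CPM (60, 123 and 91 counts) in CD8 beta+ and 12.6, 14.4 and 18.8 CPM (147, 172 and 248 counts) in DN NK1.1+ libraries. All DN NK1.1+ libraries were above all CD8 beta+ libraries. Its level rose by 0.81 on the log2 scale (SE 0.24, edgeR adjusted p = 0.036). The call was lost with limma-voom (adjusted p = 0.053) and without CD8 beta+ library 1 or 2 or DN NK1.1+ library 2 or 3 (edgeR adjusted p = 0.14, 0.10, 0.080 and 0.16), while the fold change stayed between 0.64 and 0.93. Its promoter is the one shown above with the NRF1 letters, which 18 of 64 tested members with a window hold.

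**Figure D3:**
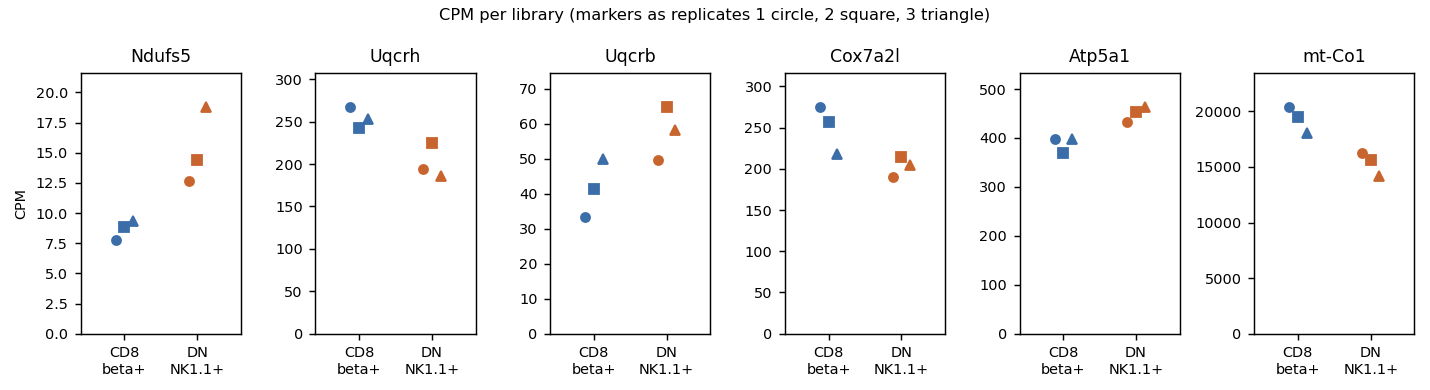
CPM in each library for 6 subunit genes, with replicates marked by shape. Ndufs5, Uqcrh, Cox7a2l, Atp5a1 and mt-Co1 have groups that do not overlap, and those of Uqcrb overlap between 49.6 and 49.9 CPM.

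By the parts of the enzyme, complex I showed no common direction. In the N module, which binds NADH, 5 of 10 members had estimates above 0 and the median was 0.01. In the Q module, where ubiquinone is reduced, 4 of 6 were above 0 with a median of 0.13. In the proximal membrane arm 7 of 9 were above 0 with a median of 0.17, and in the distal arm 5 of 10 with a median of -0.03. The further values named here were chosen after they were seen. Ndufa5, of the Q module, had 16.1, 15.4 and 16.3 CPM against 22.0, 21.5 and 18.0 CPM, without overlap (0.36, edgeR adjusted p = 0.26). Ndufa1 of the proximal arm had 11.9, 14.9 and 16.5 CPM against 16.3, 21.3 and 22.7 CPM (0.47, adjusted p = 0.19), with overlap at CD8 beta+ library 3.

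Some complex I members had lower values in DN NK1.1+ libraries without passing the test. Ndufb9, of the distal arm, had 23.3, 22.6 and 23.8 CPM against 16.5, 15.6 and 19.5 CPM, without overlap (-0.43, SE 0.18, edgeR adjusted p = 0.15). Ndufa3, of the proximal arm, had 65.9, 47.7 and 66.1 CPM against 46.1, 45.2 and 49.3 CPM, with overlap at CD8 beta+ library 2 (-0.35, adjusted p = 0.14), and it was called when that library was left out (adjusted p = 0.039). Leaving it out removes the overlap, so a smaller p follows from that choice, and 1265 of all 13758 genes were called there. Ndufv2, which carries an iron-sulfur cluster of the N module, had 49.4, 42.4 and 48.6 CPM against 36.6, 41.3 and 39.3 CPM, without overlap (-0.26, adjusted p = 0.27). The nuclear members placed here with the highest CPM, Ndufa10 and Ndufa4, had estimates of -0.01 and -0.15 (adjusted p = 0.98 and 0.48). The counts of Ndufb4 (6.87 to 10.2 CPM) are uncertain because its processed pseudogene Ndufb4c was listed at 4.67 to 10.5 CPM.

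Complex II, succinate dehydrogenase, also serves the tricarboxylic acid cycle and has no mitochondrially encoded part. None of its 4 genes was called by edgeR and none had an unadjusted p under 0.05, where 13.8% and 25% of all genes passed. With 4 genes, these counts say little beside those shares. The catalytic flavoprotein gene Sdha had 159, 153 and 159 CPM against 139, 146 and 141 CPM, and the groups did not overlap. Its log2 fold change was -0.14 (SE 0.090, adjusted p = 0.36). Sdhb, for the iron-sulfur subunit, had the same estimate (-0.14, SE 0.14), with 59.0, 46.1 and 56.6 CPM against 45.6, 45.8 and 54.7 CPM. The estimates for the membrane anchors Sdhc and Sdhd were 0.29 and 0.31 (adjusted p = 0.36 and 0.28). The catalytic and the anchor genes thus had estimates of opposite sign, a difference that was not tested.

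Complex III had the other called member, 1 of 8 tested nuclear ones (12.5%, near the 13.8% of all genes). Uqcrh, the hinge protein that helps cytochrome c dock, had 267, 242 and 253 CPM in CD8 beta+ and 194, 225 and 186 CPM in DN NK1.1+ libraries, without overlap. Its level fell by 0.33 on the log2 scale (SE 0.099, edgeR adjusted p = 0.036). The call was lost when libraries were scaled by their size only (adjusted p = 0.078) and without CD8 beta+ library 1 or 2 or DN NK1.1+ library 1 or 3 (edgeR adjusted p = 0.15, 0.072, 0.15 and 0.082). The pseudogenes Uqcrh-ps1 and Uqcrh-ps2 had at most 4 and 1 counts in a library.

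Uqcrb, which binds near the ubiquinone site, had 33.3, 41.5 and 49.9 CPM against 49.6, 64.7 and 58.1 CPM, which met at their edges. Its log2 fold change was 0.46 (SE 0.16, edgeR adjusted p = 0.070), opposite in sign to that of Uqcrh, and it was called without CD8 beta+ library 3 (0.60, adjusted p = 0.021). That library is the one in the overlap, and without it 1976 of all 13795 genes were called. Uqcrc2, a core protein, had 99.9, 90.9 and 112 CPM against 81.2, 79.3 and 85.0 CPM, without overlap (-0.30, SE 0.11, adjusted p = 0.087). Uqcr10, a small subunit, had 28.4, 19.8 and 23.0 CPM against 23.2, 29.5 and 40.8 CPM (0.40, adjusted p = 0.28). Over the 8 tested nuclear members of complex III the median was -0.03, with 3 estimates above 0 and 5 below. Their CPM summed to 593, 542 and 611 against 489, 534 and 555, with overlap, a ratio of means of 0.904. Uqcrh alone had 254 of the mean 582 CPM in CD8 beta+ and 202 of 526 CPM in DN NK1.1+ libraries.

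**Figure D4:**
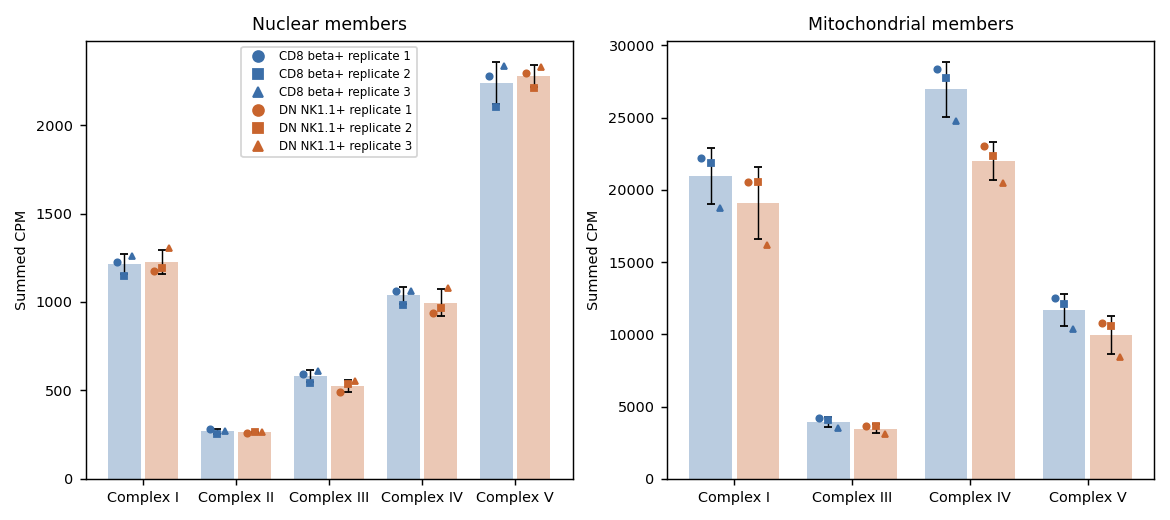
Summed CPM of the members of each complex, nuclear genes left and mitochondrially encoded genes right, as mean bars with SD (n = 3) and a point per library. Among these sums, that of mitochondrially encoded complex IV genes is the one whose groups do not overlap, with 24753 to 28344 CPM in CD8 beta+ and 20495 to 23058 CPM in DN NK1.1+ libraries. Most of that sum is mt-Co1.

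None of the 11 tested nuclear members of complex IV was called by edgeR and 2 had an unadjusted p under 0.05, where 13.8% and 25% of all genes passed. DESeq2, with 15.4% of all genes called, called Cox7a2l, lower. Cox7a2l, whose protein can join complex III to complex IV in supercomplexes, had 275, 257 and 218 CPM against 191, 214 and 205 CPM, without overlap. Its log2 fold change was -0.30 (SE 0.10, adjusted p = 0.073 by edgeR, 0.045 by DESeq2 and 0.085 by limma-voom), and without CD8 beta+ library 3 edgeR called it too (-0.40, adjusted p = 0.014). That library had the lowest CD8 beta+ value, and the fit without it called 1976 of all 13795 genes. Cox4i1, the regulatory subunit that binds ATP, had 142, 135 and 150 CPM against 125, 130 and 162 CPM (-0.03, SE 0.11). Cox6c had 103, 106 and 107 CPM against 110, 121 and 132 CPM, without overlap (0.20, edgeR adjusted p = 0.25), and Cox7b had 83.3, 76.1 and 91.5 CPM against 97.7, 99.0 and 97.1 CPM, also without overlap (0.23, adjusted p = 0.19). Both encode small accessory subunits. The summed CPM of nuclear complex IV genes had a ratio of means of 0.961. Cox7a2l is part of this sum, at 250 of 1037 CPM in CD8 beta+ and 203 of 996 CPM in DN NK1.1+ libraries (means).

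Complex IV has tissue isoforms, and nearly all counts in both groups were of the widely expressed ones. Cox4i2, the isoform of lung and of low oxygen, had 0 counts in all 6 libraries beside 9570 counts of Cox4i1, which allows a share of up to 0.0313%. Cox7b2, Cox8b and Cox8c also had 0 counts, which allows up to 0.0485%, 0.0553% and 0.0553% of the counts of each with its common form. The heart and muscle isoform Cox6a2 had 9 counts, 0.169% of those it shares with Cox6a1 (95% exact binomial interval 0.0775% to 0.321%). Cox7a1, also of heart and muscle, had 4 counts, 0.126% with Cox7a2 (0.0342% to 0.321%), and Cox6b2, the testis form, had 29 counts, 0.758% with Cox6b1 (0.508% to 1.09%). Ndufa4l2, a relative of Ndufa4 induced by low oxygen, had 8 counts, all in DN NK1.1+ library 3. These limits and intervals cover counting error only.

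None of the 17 tested nuclear members of complex V was called by edgeR, and 2 had an unadjusted p under 0.05, both with higher values in DN NK1.1+ libraries. Among all genes tested 13.8% were called and 25% had an unadjusted p under 0.05. Atp5a1 encodes the alpha subunit and Atp5b the catalytic beta subunit of the F1 head. Atp5a1 had 398, 370 and 399 CPM against 433, 453 and 463 CPM, without overlap (0.21, SE 0.089, adjusted p = 0.15). Atp5b had 505, 466 and 497 CPM against 458, 465 and 452 CPM, which also did not overlap, in the other direction (-0.09, SE 0.088, adjusted p = 0.58). CD8 beta+ library 2, at 465.9 CPM, and DN NK1.1+ library 2, at 465.2 CPM, nearly met. Of the other head genes, Atp5c1, the gamma subunit of the rotor, had an estimate of -0.20 and Atp5d, the delta subunit, one of 0.23 (adjusted p = 0.27 and 0.26). In the peripheral stalk, Atp5f1 had 177, 159 and 210 CPM against 233, 214 and 200 CPM (0.25, adjusted p = 0.18), with overlap at CD8 beta+ library 3, and it was called when that library was left out (adjusted p = 0.042). This removes the overlap, and that fit called 1976 of all 13795 genes.

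The c ring, the membrane rotor, is built of one protein that 3 genes encode, differing in their import sequences. Atp5g1 had 22.8, 21.8 and 23.3 CPM against 26.1, 26.1 and 30.8 CPM, and Atp5g3 had 66.9, 66.3 and 67.2 CPM against 77.0, 76.3 and 78.6 CPM, both without overlap. Their log2 fold changes were 0.29 and 0.21 (edgeR adjusted p = 0.32 and 0.23). Atp5g2 had 113, 99.6 and 99.5 CPM against 86.0, 81.7 and 111 CPM (-0.16, adjusted p = 0.48). The ratio of Atp5g1 and Atp5g3 together to Atp5g2 was 0.791, 0.884 and 0.910 against 1.20, 1.25 and 0.983, without overlap. This ratio was chosen after the values were seen and was not tested. The sum of the 3 genes was 203, 188 and 190 CPM against 189, 184 and 221 CPM.

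Members outside the test had almost no reads. The 17 were 8 pseudogenes, the 8 isoforms above and a second identifier of Atp5o that overlaps the first, with 25 counts in CD8 beta+ library 1 and 0 elsewhere. Atp5s, an assembly-related factor and the tested member with the lowest CPM, had 1.04, 2.16 and 1.75 CPM against 2.41, 4.35 and 3.10 CPM (0.97, SE 0.57, edgeR adjusted p = 0.33), an estimate too wide for a statement. Subunits that the name rule misses are Ndufab1, Ndufb1-ps, Cyc1 and Usmg5. None of these 4 was called by edgeR, none had an unadjusted p under 0.05, and their estimates ran from -0.27 to 0.02. Among all genes tested 13.8% were called and 25% had an unadjusted p under 0.05.

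Genes that serve the same machinery were read from lists of known roles. Over all genes tested, 13.8% were called, 25% had an unadjusted p under 0.05 and 50.3% had estimates below 0. Among factors that assemble the complexes, 0 of 15 tested for complex I, 0 of 4 for II, 0 of 6 for III, 0 of 22 for IV and 0 of 5 for V were called by edgeR. At an unadjusted p under 0.05 the complex IV list had 3 genes and the other lists 0. Among genes for replication, transcription and RNA processing of the mitochondrial genome, 0 of 30 were called, 3 had an unadjusted p under 0.05, and 22 estimates were below 0 with a median of -0.11. Of 78 mitochondrial ribosome genes 1 was called, Mrps16, a small-subunit protein, at 16.9, 15.8 and 14.7 CPM against 9.89, 8.78 and 9.76 CPM (-0.73, SE 0.22, edgeR adjusted p = 0.036), a call lost without any of 5 libraries (adjusted p = 0.070 to 0.13). Of these 78, 49 had estimates below 0, with a median of -0.08. Of the 18 genes of the tricarboxylic acid cycle and pyruvate dehydrogenase 0 were called and 3 had an unadjusted p under 0.05.

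**Figure D5:**
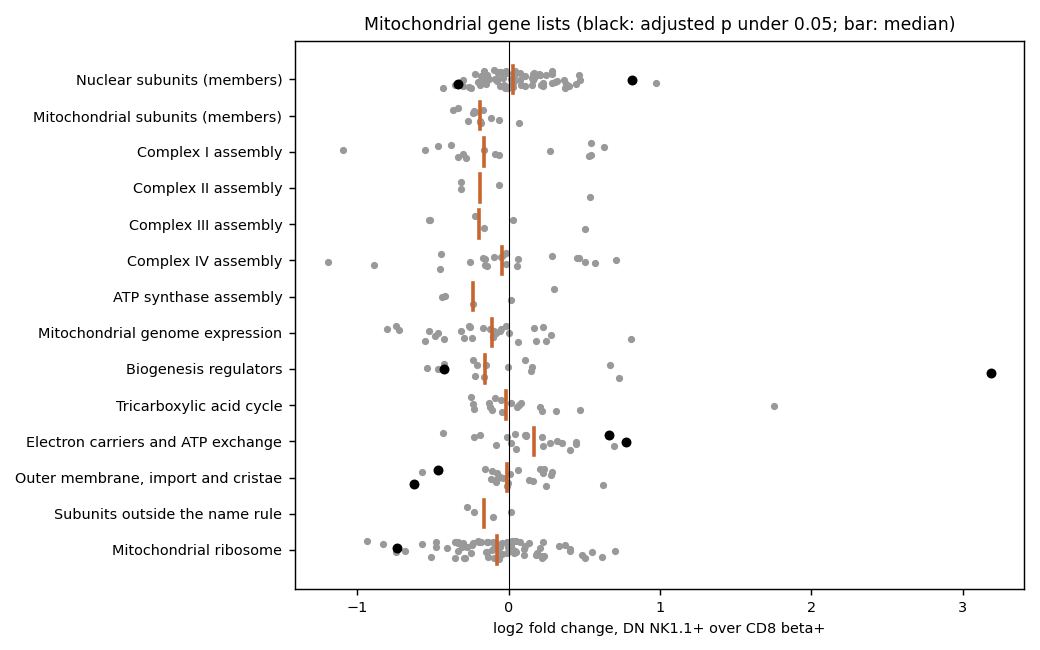
Log2 fold change of DN NK1.1+ over CD8 beta+ libraries for each tested gene of the subunit sets and of 12 lists of other mitochondrial genes, with the median of each as an orange bar and genes with an adjusted p under 0.05 in black. The nuclear subunit genes lie between -0.43 and 0.97 and the mitochondrially encoded ones between -0.36 and 0.07, and Ppargc1a lies far to the right at 3.19.

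Several called genes lay beside the complexes, in enzymes that feed them and in the import machinery, at a share no higher than among all genes. Gpd2, the mitochondrial glycerol-3-phosphate dehydrogenase that brings electrons of cytosolic NADH to ubiquinone by a shuttle, had 55.6, 65.8 and 78.8 CPM against 104, 106 and 107 CPM. Its level rose by 0.66 on the log2 scale (SE 0.12, edgeR adjusted p = 0.0018), and every DN NK1.1+ library was above every CD8 beta+ library. Coq9, a factor of ubiquinone synthesis, had 6.87, 8.43 and 7.30 CPM against 12.1, 12.5 and 14.1 CPM (0.77, SE 0.24, adjusted p = 0.049), a call lost when any of the 6 libraries was left out (adjusted p = 0.090 to 0.16) and with DESeq2 (0.056) and limma-voom (0.061). They were the 2 called genes of 22 tested electron carriers, ubiquinone enzymes and ATP exchangers, 9.09% where 13.8% of all genes were called. Of 24 genes for the outer membrane, protein import and cristae 2 were called, 8.33%. Tomm20, an import receptor, fell from 109, 115 and 106 CPM to 84.2, 81.4 and 73.6 CPM (-0.46, SE 0.10, adjusted p = 0.0064). Timm17a, of the inner membrane import channel, fell from 26.3, 29.0 and 28.8 CPM to 17.1, 17.3 and 20.2 CPM (-0.62, SE 0.17, adjusted p = 0.026), a call lost without any of 5 libraries (adjusted p = 0.052 to 0.094).

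Among 16 tested regulators of mitochondrial biogenesis 1 rose and 1 fell, a share of 12.5% and near the 13.8% of all genes. Gabpb2, a partner of the ETS factor GABPA, had 164, 162 and 161 CPM against 123, 125 and 115 CPM, a fall of 0.43 on the log2 scale (SE 0.092, edgeR adjusted p = 0.0051). Ppargc1a, the coactivator PGC-1 alpha, had 0, 0.433 and 0.206 CPM against 1.12, 3.34 and 2.20 CPM, and it rose by 3.19 on the log2 scale (SE 0.98, adjusted p = 0.041). The call was lost when any of the 6 libraries was left out (adjusted p = 0.064 to 0.23). Nrf1, the factor whose half-site letters are in 27.5% of the member windows, had 32.9, 35.7 and 37.7 CPM against 27.4, 26.4 and 23.2 CPM, without overlap (-0.47, SE 0.16, edgeR adjusted p = 0.063). Gabpa itself had an estimate of 0.00 (adjusted p = 0.99).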

How the data were processed

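Bulk RNA-seq of 6 libraries of mouse mammary lymphocytes was used, 3 of CD8 beta+ T cells and 3 of DN NK1.1+ lymphocytes. The table the authors deposited was read as a table of expected counts per gene, judging from its fractional values and unequal library totals. Per the labels' protocols, a Qiagen micro kit served for RNA and a Tecan Solo mouse kit for library preparation. The submitters' processing notes name build mm10 and Cell Ranger 7.1.0, a single-cell tool; the aligner, the counting tool and the use of strand for bulk libraries are not stated. The 2 identifier columns carry each other's headings, and all 55450 identifiers have the same symbol in GENCODE M21, used for coordinates, lengths and gene types. Promoters are from RefSeq (GRCm38.p6), for which all 94 nuclear members matched a gene.

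Counts were rounded, filtered (minimum count 10, minimum total 15) and fitted with edgeR 4.0.16 (TMM, robust quasi-likelihood, group alone, two-sided) in R 4.3.3. The F statistic of that fit gave the standard errors and 95% intervals. No sum, ratio or list was tested. DESeq2 1.42.0, limma-voom (limma 3.58.1), other scalings, no filter, a replicate block and leaving out each library were alternatives. On simulated counts for this comparison (12752 genes), the fit recovered 16.5% of 79 genes set to differ 1.5-fold, 75% of 52 set to 2-fold and 82.8% of 58 set to 4-fold, and 0.99% of its 101 calls were false. Within groups, chi-square per degree of freedom between libraries was 9.46 to 25.7, so none was a copy.

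The members, lists and tests were chosen with earlier results of these data known. Genes were named by rule: every mitochondrially encoded member, in each complex the 2 tested nuclear members with the highest CPM and up to 4 called ones, the isoforms, and in each other list the called gene with the largest change whose higher group averaged at least 5 CPM. Other named genes (further nuclear members, Gpd2, Tomm20, Ppargc1a, Nrf1 and Gabpa) and the motif words were chosen after the values were seen. One nuclear member is not reported by name.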

Additional observations from a re-analysis of the deposited data

How the results depend on the processing

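The calls among the members are few and close to the threshold, and they changed with the processing. One nuclear member was called higher and one lower in the reported fit (1 and 1). With no filter on low counts these became 2 and 3, with 2 mitochondrially encoded genes lower, where 2192 of all 23118 genes were called. The 3 lower nuclear ones were Uqcrh, Cox7a2l and Atp5o. Atp5o is the name of 2 identifiers, the second with 25 counts in CD8 beta+ library 1 and 0 elsewhere. Summed over both identifiers, Atp5o had a ratio of DN NK1.1+ to CD8 beta+ means of 0.977. DESeq2 called 2 nuclear members and 1 mitochondrially encoded member lower, limma-voom 0 nuclear members higher and 1 mitochondrially encoded member lower, and scaling by library size only 0 nuclear members lower. Leaving out each library gave 0 to 3 nuclear members higher, 0 to 2 lower and 0 to 3 mitochondrially encoded members lower. The calls among all genes moved too, from 1180 of 13878 without CD8 beta+ library 1 to 1976 of 13795 without CD8 beta+ library 3. The medians with each library left out ran from -0.0502 to 0.0703 for nuclear members, from -0.24 to 0.0853 for complex III, from -0.15 to 0.0237 for complex IV and from -0.0505 to 0.0616 for complex V. Estimates near 0 turned sign: Cox4i1 was 0.0189 with library size only and -0.15 to 0.0391 over the left-out libraries, Ndufa10 was 0.0402 with library size only, 0.00902 with limma-voom and -0.10 to 0.0582 over the left-out libraries, and mt-Nd5 was -0.14 to 0.0560. The causes were not tested. The median of mitochondrially encoded members stayed below 0 under all settings run, from -0.29 to -0.12. Gpd2, Gabpb2 and Tomm20 were called under all of them (highest adjusted p 0.016, 0.025 and 0.042). Libraries with the same replicate number correlated by -0.05, 0.189 and 0.256 in their deviations from the group means. CD8 beta+ libraries 2 and 3 correlated best with the DN NK1.1+ library of the same number, and library 1 with DN NK1.1+ library 2 (0.106). The labels do not say that the numbers pair samples, and the reported fit did not pair them. Whether same-numbered libraries share a preparation is not stated. With a replicate block 2082 genes were called in place of 1822, among them 2 nuclear members higher (Ndufs5 and Uqcrb) and 2 mitochondrially encoded members lower (mt-Co1 and mt-Nd6). In simulation with 3 libraries per group, most 1.5-fold changes were missed. The changed genes were drawn from all levels, and recovery at the levels of the members was not measured apart.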
